A study of Homo sapiens with 6 samples.

Results

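LY317615 (enzastaurin) inhibits protein kinase C beta, and it was given here to RL, a lymphoma cell line of human B-cell origin with a t(14;18) translocation. The genes described here are those of the glutathione and thioredoxin systems, the superoxide dismutases, catalase, light-chain ferritin and the NRF2 pathway that controls many of them. They were chosen by symbol from a list of family names and single genes. That rule used no measured values, but it was set with earlier results of these data known. Of the 18417 genes tested, 55 were members. Of the names sought, FTH1 and PRDX5 were not analysed here, and TXNRD3 shared its probe set with a second gene and was set aside. Cells given LY317615 (3 arrays) were profiled after 48 h, at a dose the labels give as 2.5 mM, a unit that could not be checked. Untreated RL cells (3 arrays, also titled 48 h) had no vehicle named in the labels. Total RNA of both was read on Affymetrix Gene 1.0 ST arrays, on which a set of probes measures each transcript.

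Glutathione is a tripeptide made in a pair of steps: glutamate-cysteine ligase, built from the catalytic subunit GCLC and the modifier subunit GCLM, joins glutamate to cysteine, and GSS adds glycine. Glutathione peroxidases and transferases spend it on peroxides and electrophiles, and GSR, the NADPH-dependent reductase, returns the oxidised form to use. The thioredoxin system works beside it, with TXNRD1 and TXNRD2 reducing thioredoxins, which in turn serve the peroxiredoxins. KEAP1 holds the transcription factor NRF2 (gene NFE2L2) for degradation, and oxidants or electrophiles free NRF2 to bind antioxidant response elements near genes such as NQO1, HMOX1, TXNRD1, GCLM and SRXN1.

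The promoters of a few of these inducible genes are shown because the genes, all textbook NRF2 targets, gave different results on the arrays. Sequences are from RefSeq (GRCh38.p14), 250 bases before to 50 after the start of a transcript, read 5′ to 3′ on the strand of the gene. Capitals mark the antioxidant response element core TGACNNNGC or its reverse complement, both strands having been searched. The AP-1 element shares its first letters with this core, so a match does not separate them. TXNRD1 has a pair of windows on chromosome 12, at chr12:104215529-104215828 and chr12:104286782-104287081 (plus strand); GCLM lies at chr1:93909381-93909680 (minus strand) and NQO1 at chr16:69726511-69726810 (minus strand).
TXNRD1, first window: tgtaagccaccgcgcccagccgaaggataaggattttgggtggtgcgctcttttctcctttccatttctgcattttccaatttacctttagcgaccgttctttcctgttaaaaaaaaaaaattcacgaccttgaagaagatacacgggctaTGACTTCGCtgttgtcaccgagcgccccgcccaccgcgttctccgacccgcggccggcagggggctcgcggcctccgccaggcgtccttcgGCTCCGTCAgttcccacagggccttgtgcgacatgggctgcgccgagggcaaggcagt
TXNRD1, second window: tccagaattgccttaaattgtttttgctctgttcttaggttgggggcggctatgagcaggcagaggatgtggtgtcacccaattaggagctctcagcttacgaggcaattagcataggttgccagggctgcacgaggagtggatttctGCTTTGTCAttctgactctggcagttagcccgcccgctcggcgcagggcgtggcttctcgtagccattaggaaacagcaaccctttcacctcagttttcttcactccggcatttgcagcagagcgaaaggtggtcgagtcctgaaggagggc
GCLM: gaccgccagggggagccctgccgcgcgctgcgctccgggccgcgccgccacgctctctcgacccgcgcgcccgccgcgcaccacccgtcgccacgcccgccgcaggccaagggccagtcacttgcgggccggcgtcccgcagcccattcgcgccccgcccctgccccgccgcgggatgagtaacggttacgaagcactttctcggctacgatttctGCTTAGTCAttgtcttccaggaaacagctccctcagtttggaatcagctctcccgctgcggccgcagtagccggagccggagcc
NQO1: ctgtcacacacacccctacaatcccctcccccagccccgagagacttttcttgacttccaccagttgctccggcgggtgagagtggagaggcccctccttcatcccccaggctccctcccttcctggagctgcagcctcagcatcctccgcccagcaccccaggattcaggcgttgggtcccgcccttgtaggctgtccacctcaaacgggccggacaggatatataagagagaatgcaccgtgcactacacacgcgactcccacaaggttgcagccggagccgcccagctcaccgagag

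The first TXNRD1 window holds matches that begin 99 and 8 bases before the start, and the second holds 1 that begins 102 bases before it. GCLM has 1 match, 34 bases before the start, and the NQO1 window has none of these letters. The GCLC and SRXN1 windows, not shown, also have none, and HMOX1 had no window. Bases more than 250 before the start were not searched, so an element farther out would not be seen. Windows were given for 44 of the 55 genes, 62 windows in all, and 11 of them (17.7%) hold the core, against 4687 of 35116 windows of all genes (13.3%). The 10 genes with a match were GCLM, GPX2, GSTA4, GSTM1, GSTM5, GSTO1, GSTP1, KEAP1, MGST1 and TXNRD1. Of these, 1 (GSTM1) was called higher, 1 (TXNRD1) was called lower and 8 were not called. For comparison, 14.2% of all genes tested were called higher and 21.4% lower, 35.7% in either direction. The GSTM1 call was lost under several other settings, as given below.

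After LY317615 the redox genes did not move as a block. The larger changes were falls of CHAC1, GCLC, TXNRD1, GPX7, HMOX1 and SOD1, by 0.51 to 0.80 on the log2 scale, and a rise of NQO1 by 0.72, with smaller rises of CAT, MGST2 and GSTK1. NFE2L2 and KEAP1, which encode NRF2 and its inhibitor, did not pass the test. In limma with Benjamini-Hochberg adjustment over all genes at a threshold of 0.05, 8 of 55 were called higher (14.5%, against a background of 14.2% of all genes) and 9 were called lower (16.4%, against 21.4%). In both directions together 17 were called (30.9%, against 35.7% of all genes), a share close to the background. The median log2 fold change was 0.01 over the 55 genes and 0.02 over all genes. The groups of arrays did not overlap for 30 of the 55 (54.5%, against 49.8% of all genes).

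**Figure D1:**
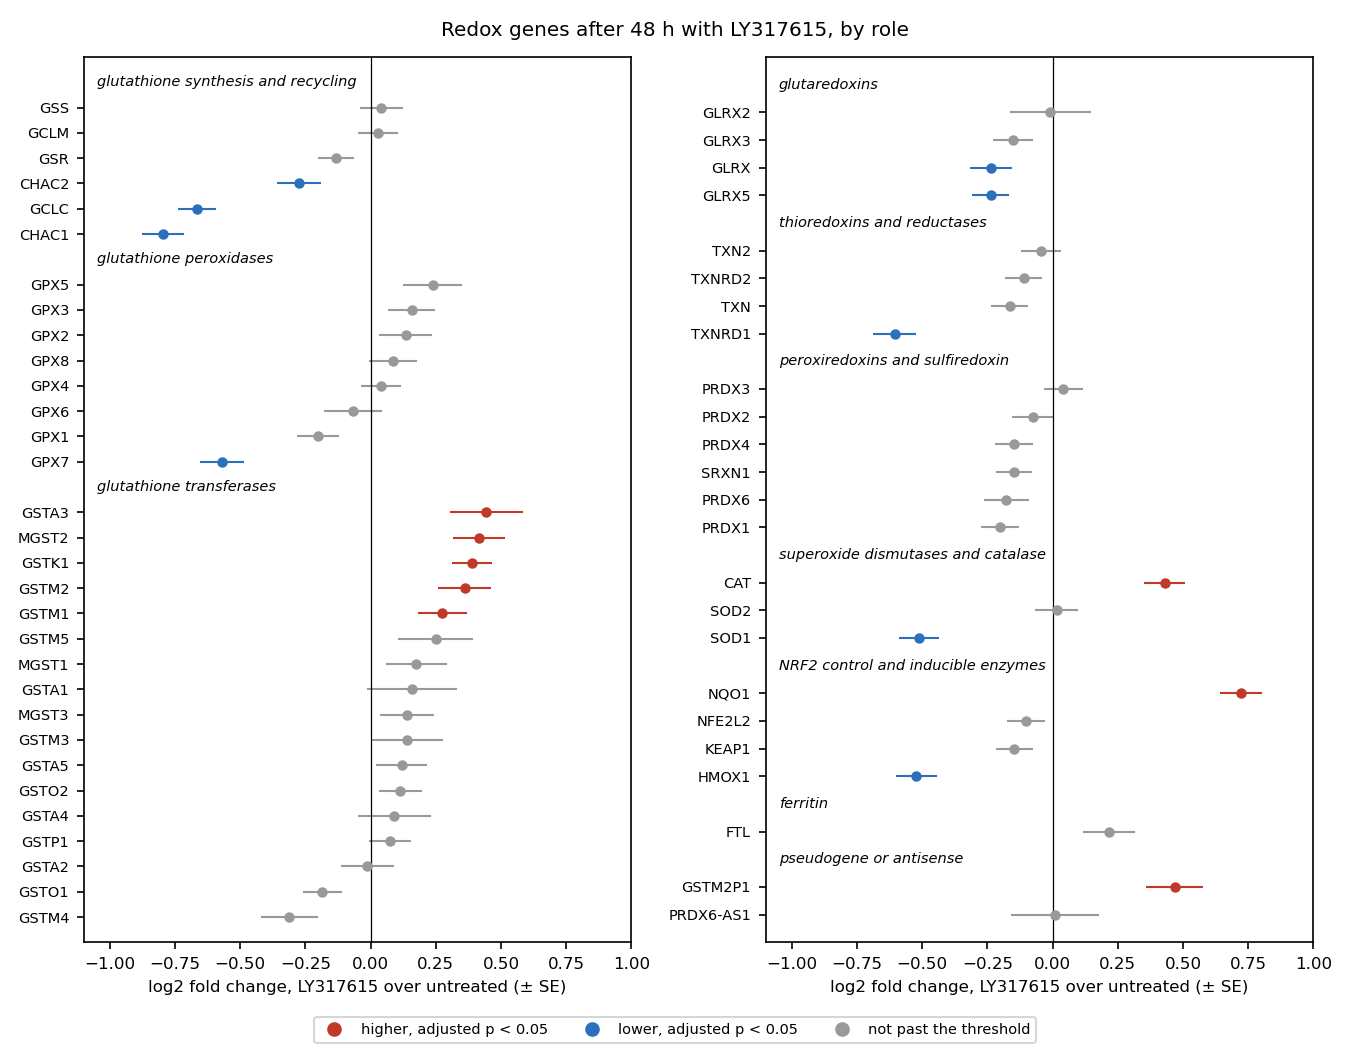
Log2 fold change of each of the 55 redox genes, LY317615 over untreated, with its standard error, grouped by role; red and blue points passed an adjusted p of 0.05 upward and downward, and grey points did not. CHAC1, GCLC, TXNRD1 and GPX7 lie farthest to the left and NQO1 farthest to the right, while the peroxiredoxins stay between -0.20 and 0.04.

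The counts moved with some choices. With the array medians set equal they were 5 higher and 15 lower, so that the lower share of the calls was 75.0%, against 52.9% on the deposited scale. The same share over all genes moved alike, at 76.1% with equal medians against 60.1% on the deposited scale. Called lower were then 27.3% of the redox genes, against 26.4% of all genes. After cyclic loess, a normalization that evens out differences that run with brightness, the counts were 6 and 6 (10.9% each of the redox genes, against 12.9% higher and 17.8% lower of all genes). Called lower were 29.1% of the redox genes, against 24.0% of all genes, where the variance prior followed intensity, and 25.5%, against 23.5%, with log2 of the value plus 16. Whether the lower share lay under or over that of all genes thus turned with the setting. Without untreated replicate 1 or without LY317615 replicate 3, 5 were called higher. The calls of 11 genes held in all leave-one-out fits and in every other fit at the same threshold that tested them (GSTM2P1 was not tested without the dimmest genes): those of NQO1, CAT, MGST2, GSTK1, GSTM2P1, CHAC1, GCLC, TXNRD1, GPX7, HMOX1 and SOD1.

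On the arrays as a whole, median intensity was 60.01 to 61.4 in LY317615 arrays and 56.7 to 58.2 in untreated arrays. LY317615 replicate 3 stood apart from its group, and limma gave it an array weight of 0.376, where the others had 1.04 to 1.51. The series calls the replicates independent without saying whether each had its own culture, and the p-values therefore cover the spread of these arrays alone, part of which may be technical. The 6 measured B-cell markers (MS4A1, CD79A, CD79B, PAX5, CD22 and BLK) lay between the 87.1th and 98.9th percentile of gene intensity, and 5 of them were called lower. Their summed linear intensity was 7183 to 7873 in LY317615 arrays and 10250 to 10762 in untreated arrays. Markers of T cells, myeloid cells, erythroid cells and fibroblasts all lay below the median gene, none was at 0, and 6 of 15 were called higher. For comparison, 37.9% of all genes above the median were called lower and 15.4% of all genes below it were called higher. The summed level of the 5 T-cell markers was 174.9 to 199.5 in LY317615 arrays and 144.8 to 148.4 in untreated arrays, and that of the 5 myeloid markers was 149.0 to 178.2 and 121.4 to 126.2 in the same order. For the 3 fibroblast markers it was 135.6 to 162.2 in LY317615 arrays and 117.4 to 133.6 in untreated arrays, and for the 2 erythroid markers 64.3 to 67.4 and 55.2 to 64.4. Their part in the results below was not tested. In bulk RNA, fewer cells with a transcript and less of it per cell cannot be told apart.

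Counts differed with brightness, so the genes were also split at the median log2 intensity of all genes. Of the 36 redox genes above it, 4 were called higher (11.1%) and 9 lower (25.0%), against 13.1% and 37.9% of all genes above it. Of the 19 below it, 4 were called higher (21.1%), against 15.4% of all genes below it. None of those 19 was called lower by limma, where 5.0% of all genes below the median were. At an unadjusted p under 0.05, 0 of the 19 were lower, against 656 of all 9208 genes below the median. The median log2 fold change of the brighter redox genes was -0.15, against -0.14 for all brighter genes, and that of the dimmer ones was 0.14, against 0.11. This split was chosen with results known and gets no test.

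**Figure D2:**
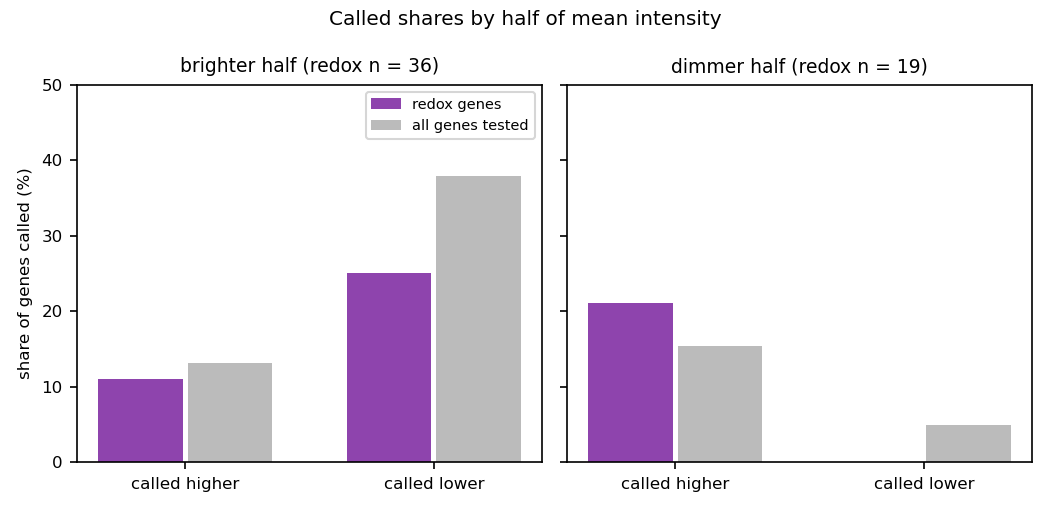
Share of genes called higher or lower (percent) among redox genes and all genes tested, in genes above (brighter) and below (dimmer) the median of mean log2 intensity over the 6 arrays. Above it 25.0% of redox genes were called lower, against 37.9% of all genes, and below it none was, against 5.0%.

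Among the 6 genes of glutathione synthesis and recycling, 3 fell and 0 rose. All 6 were brighter than the median gene, where 37.9% of all genes were called lower. GCLC, the catalytic subunit of the rate-limiting ligase, had log2 intensities of 8.02, 7.95 and 8.02 in LY317615 arrays and 8.62, 8.72 and 8.65 in untreated arrays. All treated arrays lay below all untreated ones. Its log2 fold change was -0.67 ± 0.07 (SE, limma adjusted p = 0.00024), and its level was 1.59-fold lower. GCLM, the modifier subunit, read 7.93, 7.93 and 7.78 in LY317615 arrays and 7.89, 7.85 and 7.82 in untreated arrays. These groups overlapped, and the change of 0.03 had a 95% interval of -0.15 to 0.20.

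The difference between the subunits was read as the log2 ratio of GCLC to GCLM within each array. It was 0.09, 0.02 and 0.24 in LY317615 arrays and 0.74, 0.87 and 0.83 in untreated arrays. The ratio was thus lower on every treated array, by 0.69 on average. The pairs set against each other here and below were chosen with results known, so their ratios are a description with no test.

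CHAC1, a stress-inducible enzyme that breaks glutathione down, fell most of all redox genes on the log2 scale. It had log2 intensities of 10.39, 10.32 and 10.17 in LY317615 arrays and 11.13, 11.08 and 11.06 in untreated arrays, with no overlap. The log2 fold change was -0.80 ± 0.08 (SE, limma adjusted p = 0.00019), or 1.74-fold lower. Its relative CHAC2, which degrades glutathione more slowly and without a known stress induction, read 7.62, 7.62 and 7.42 in LY317615 arrays and 7.87, 7.80 and 7.81 in untreated arrays. It was called lower at -0.27 ± 0.08 (SE, limma adjusted p = 0.031), but the call was lost after cyclic loess (-0.18, adjusted p = 0.070) and without LY317615 replicate 3 or any 1 untreated array. Synthesis and breakdown genes were therefore both among those that fell.

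GSS, the second enzyme of synthesis, read 8.06, 7.99 and 7.93 in LY317615 arrays and 7.88, 8.06 and 7.91 in untreated arrays. The groups overlapped, and the 95% interval of its change was -0.14 to 0.23. GSR read 10.81, 10.86 and 10.81 in LY317615 arrays and 10.97, 10.97 and 10.94 in untreated arrays. Here the groups did not overlap, but the change of -0.13 did not pass (adjusted p = 0.16 in limma) except where the variance prior followed intensity.

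In the thioredoxin system 1 of 4 genes, all brighter than the median gene, fell and 0 rose. Of all genes brighter than the median, 37.9% were called lower and 13.1% higher. TXNRD1, the selenoprotein that reduces cytosolic thioredoxin, had log2 intensities of 10.08, 10.02 and 10.24 in LY317615 arrays and 10.70, 10.76 and 10.69 in untreated arrays. It was lower on each treated array, by 0.60 ± 0.08 (SE, limma adjusted p = 0.00074), or 1.52-fold. TXN, its cytosolic substrate, read 9.82, 9.75 and 9.86 in LY317615 arrays and 9.98, 9.99 and 9.96 in untreated arrays, with a change of -0.17 that did not pass on the deposited scale (adjusted p = 0.10 in limma). It passed with the array medians set equal, with an intensity trend and with log2 of the value plus 16, and it was -0.03 after cyclic loess. Within arrays, the log2 ratio of TXNRD1 to TXN was 0.26, 0.27 and 0.39 in LY317615 arrays and 0.73, 0.77 and 0.73 in untreated arrays.

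The mitochondrial pair changed less. TXN2 read 8.11, 8.10 and 8.09 in LY317615 arrays and 8.04, 8.24 and 8.14 in untreated arrays, with an interval of -0.22 to 0.13 for its change. TXNRD2 read 7.40, 7.42 and 7.32 in LY317615 arrays and 7.47, 7.50 and 7.49 in untreated arrays, a change of -0.11 (adjusted p = 0.25 in limma). The probe set shared by TXNRD3 and TXNRD3NB was fitted apart with other such probe sets and gave 0.15 (adjusted p = 0.27 in limma).

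The peroxiredoxins, thiol peroxidases that thioredoxin keeps reduced, and SRXN1, which repairs them when they are over-oxidised, held 0 called genes of 6 in limma on the deposited scale, with 1 (PRDX1, lower) at an unadjusted p under 0.05. Their changes ran from -0.20 to 0.04, with a median of -0.15, and 4 of the 6 had groups that did not overlap. All 6 were brighter than the median gene, where the groups did not overlap for 6232 of 9209 genes. Of all those brighter genes 13.1% were called higher and 37.9% lower, and 4025 of the 9209 were lower at an unadjusted p under 0.05. PRDX1 read 10.66, 10.64 and 10.68 in LY317615 arrays and 10.80, 10.94 and 10.84 in untreated arrays, a change of -0.20 ± 0.07 (SE) at an adjusted p of 0.059 in limma. It passed under 5 of the other settings, in the same direction. SRXN1, an NRF2 target, read 7.24, 7.26 and 7.20 in LY317615 arrays and 7.40, 7.36 and 7.39 in untreated arrays, a change of -0.15 that passed only with the array medians set equal among the settings tried.

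PRDX6, which uses glutathione, read 10.23, 10.41 and 10.18 in LY317615 arrays and 10.53, 10.42 and 10.41 in untreated arrays. PRDX4 of the endoplasmic reticulum read 8.29, 8.25 and 8.20 in LY317615 arrays and 8.36, 8.45 and 8.37 in untreated arrays. In neither did the groups overlap, though in PRDX6 the nearest arrays of both groups read alike. PRDX2 read 6.99, 6.93 and 6.80 in LY317615 arrays and 6.99, 6.98 and 6.97 in untreated arrays, and the mitochondrial PRDX3 read 11.11, 10.98 and 10.96 against 11.00, 11.00 and 10.92 in untreated arrays. Both of these overlapped, and the interval for PRDX3 was -0.13 to 0.21.

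Of the 4 glutaredoxins, small thiol-disulfide oxidoreductases that draw on glutathione, 2 were called lower and 0 higher. All 4 were brighter than the median gene, where 37.9% of all genes were called lower. GLRX read 8.76, 8.84 and 8.84 in LY317615 arrays and 9.01, 9.16 and 8.98 in untreated arrays, and changed by -0.24 ± 0.08 (SE, limma adjusted p = 0.044). That call was lost in each of the 6 leave-one-out fits and after cyclic loess (-0.08). GLRX5, needed for iron-sulfur clusters in mitochondria, was called lower on its brighter probe set at -0.24 ± 0.07 (SE, limma adjusted p = 0.029). That call was lost in 5 of the 6 leave-one-out fits, after cyclic loess and with the mean of its probe sets, so it rests on the brighter probe set alone. GLRX3, at -0.15, and GLRX2, at -0.01, were not called.

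The 2 probe sets of GLRX5 differed. The brighter (8169709) read 10.10, 10.15 and 10.12 in LY317615 arrays and 10.32, 10.34 and 10.41 in untreated arrays, without overlap. The dimmer (7976515) read 9.87, 9.67 and 10.03 in LY317615 arrays and 9.87, 9.77 and 9.87 in untreated arrays, with a change of 0.02 and a 95% interval of -0.20 to 0.25. GPX1, the cytosolic peroxidase, was the other gene with a second probe set: 8180346 changed by -0.20 (interval -0.39 to -0.02 before adjustment) and 8087405 by 0.14 (interval -0.12 to 0.40). Neither GPX1 probe set passed after adjustment over all probe sets (adjusted p = 0.085 and 0.37 in limma). In fits with 1 probe set per gene, the brighter one was called lower with an intensity trend and with the array medians set equal. It was also called lower without the dimmest 30% of genes and with log2 of the value plus 16, and its change was -0.05 after cyclic loess.

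**Figure D3:**
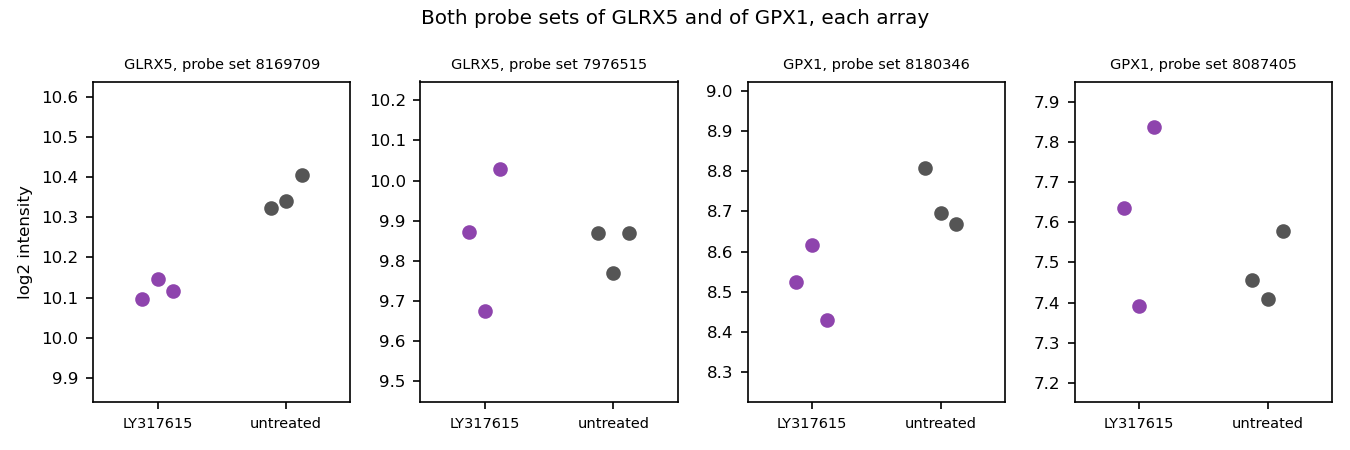
Log2 intensity on each array for both probe sets of GLRX5 and of GPX1, LY317615 at left and untreated at right in each panel. The groups are apart on the brighter probe set of each gene (left panel of each pair) and overlap on the dimmer one.

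Among the 8 glutathione peroxidases 1 fell and 0 rose. The fall was among the 3 brighter than the median gene, where 37.9% of all genes were called lower. Of all genes below the median 5.0% were. GPX7, a peroxidase of the endoplasmic reticulum, had log2 intensities of 6.90, 7.08 and 6.82 in LY317615 arrays and 7.50, 7.53 and 7.48 in untreated arrays. It fell by 0.57 ± 0.09 (SE, limma adjusted p = 0.0012), with all treated arrays below all untreated ones. GPX4, which reduces lipid peroxides in membranes and guards against ferroptosis, read 11.55, 11.53 and 11.40 in LY317615 arrays and 11.45, 11.49 and 11.42 in untreated arrays. Its groups overlapped, and its change of 0.04 had an interval of -0.13 to 0.21. GPX1 on its brighter probe set read 8.52, 8.62 and 8.43 in LY317615 arrays and 8.81, 8.70 and 8.67 in untreated arrays. GPX2, GPX3, GPX5, GPX6 and GPX8 were below the median gene in intensity and changed by -0.07 to 0.24 with no call.

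The 17 glutathione transferases, which join glutathione to electrophiles, held 5 called higher and 0 called lower in limma, where 2 (GSTM4 and GSTO1) were lower at an unadjusted p under 0.05. Among all genes 14.2% were called higher and 21.4% lower. At an unadjusted p under 0.05, 4681 of all 18417 genes were lower, and 4025 of the 9209 brighter than the median. Both GSTM4 and GSTO1 were brighter than the median gene. Of the 12 transferases below the median intensity 3 were called higher, where 15.4% of all genes were, and of the 5 above it 2 were, where 13.1% of all genes were. GSTK1, a mitochondrial and peroxisomal transferase, read 8.91, 9.03 and 8.94 in LY317615 arrays and 8.64, 8.52 and 8.55 in untreated arrays. It rose by 0.39 ± 0.08 (SE, limma adjusted p = 0.0045). MGST2, a membrane-bound transferase, read 8.09, 8.33 and 8.25 in LY317615 arrays and 7.69, 7.96 and 7.77 in untreated arrays, and rose by 0.42 ± 0.10 (SE, limma adjusted p = 0.012). In both, every treated array was above every untreated one, and after cyclic loess the changes were 0.54 and 0.53.

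The other calls were in dim genes. GSTA3 read 3.81, 4.28 and 4.07 in LY317615 arrays and 3.71, 3.76 and 3.37 in untreated arrays, a change of 0.44 ± 0.14 (SE). GSTM2 read 5.22, 5.55 and 5.47 in LY317615 arrays and 5.08, 4.95 and 5.13 in untreated arrays, a change of 0.36 ± 0.10. GSTM1 read 5.53, 5.29 and 5.43 in LY317615 arrays and 5.11, 5.04 and 5.27 in untreated arrays, a change of 0.27 ± 0.09. The calls of GSTA3, GSTM2 and GSTM1 were all lost after cyclic loess (adjusted p = 0.073, 0.12 and 0.24 in limma), with the array medians set equal, and in 4 of the 6 leave-one-out fits each. All genes below the median intensity had a median change of 0.11 in the same direction.

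The pseudogene GSTM2P1, which the family name brought in, rose by 0.47 ± 0.11 (SE, limma adjusted p = 0.0099), with 3.99, 4.34 and 4.22 in LY317615 arrays and 3.87, 3.64 and 3.65 in untreated arrays. The GSTM genes are close copies of each other, as are the GSTA genes, and their probes may read more than 1 of them. GSTM4 pointed the other way at -0.31 ± 0.11, with an adjusted p of 0.055 in limma, and passed under 5 other settings. GSTP1, the transferase of the pi class, read 11.39, 11.43 and 11.33 in LY317615 arrays and 11.38, 11.35 and 11.18 in untreated arrays, with an interval of -0.11 to 0.26. GSTO1 changed by -0.18 (adjusted p = 0.088 in limma) and passed only with the array medians set equal and with log2 of the value plus 16. GSTO2, GSTM3, GSTM5, GSTA1, GSTA2, GSTA4, GSTA5, MGST1 and MGST3 changed by -0.01 to 0.25, none of them called. PRDX6-AS1, an RNA antisense to PRDX6, changed by 0.01.

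Superoxide dismutases and catalase went different ways. SOD1, the copper-zinc enzyme of the cytosol, had log2 intensities of 11.43, 11.33 and 11.35 in LY317615 arrays and 11.84, 11.96 and 11.84 in untreated arrays. It fell by 0.51 ± 0.08 (SE, limma adjusted p = 0.0012), or 1.43-fold, with no overlap. SOD2, the manganese enzyme of mitochondria, read 8.72, 8.80 and 8.57 in LY317615 arrays and 8.68, 8.71 and 8.66 in untreated arrays, with an interval of -0.17 to 0.20 for its change. CAT, which breaks down hydrogen peroxide in peroxisomes, read 8.27, 8.38 and 8.32 in LY317615 arrays and 7.99, 7.82 and 7.87 in untreated arrays. It rose by 0.43 ± 0.08 (SE, limma adjusted p = 0.0034), again with no overlap. The log2 ratio of SOD1 to SOD2 was 2.71, 2.53 and 2.78 in LY317615 arrays and 3.16, 3.26 and 3.19 in untreated arrays.

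The NRF2 pathway itself showed 1 rise and 1 fall among 4 genes. All 4 were brighter than the median gene, where 13.1% of all genes were called higher and 37.9% lower. NQO1, a quinone reductase and standard readout of NRF2, had log2 intensities of 7.24, 7.32 and 7.18 in LY317615 arrays and 6.43, 6.61 and 6.54 in untreated arrays. It rose by 0.72 ± 0.08 (SE, limma adjusted p = 0.00029), or 1.65-fold, the largest rise among the redox genes. HMOX1, the heme oxygenase that NRF2 and BACH1 control, read 7.76, 7.79 and 7.77 in LY317615 arrays and 8.20, 8.41 and 8.29 in untreated arrays. It fell by 0.52 ± 0.08 (SE, limma adjusted p = 0.0013). The groups did not overlap in either gene.

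NFE2L2 read 9.53, 9.56 and 9.58 in LY317615 arrays and 9.65, 9.73 and 9.60 in untreated arrays. KEAP1 read 8.95, 8.88 and 8.90 in LY317615 arrays and 9.01, 9.12 and 9.03 in untreated arrays. In both, all treated arrays were below all untreated ones, but the changes of -0.10 and -0.15 did not pass (adjusted p = 0.30 and 0.15 in limma), and after cyclic loess they were 0.04 and 0.01. The 95% intervals were -0.27 to 0.06 for NFE2L2 and -0.31 to 0.02 for KEAP1.

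Genes that are all known NRF2 targets thus differed in direction: NQO1 rose, TXNRD1, GCLC and HMOX1 fell, and GCLM and SRXN1 were not called. FTL, light-chain ferritin, read 10.27, 10.18 and 10.05 in LY317615 arrays and 9.99, 9.79 and 10.09 in untreated arrays. It was not called at 0.22 (adjusted p = 0.12 in limma), but it was after cyclic loess (0.35, adjusted p = 0.024) and where the variance prior followed intensity.

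**Figure D4:**
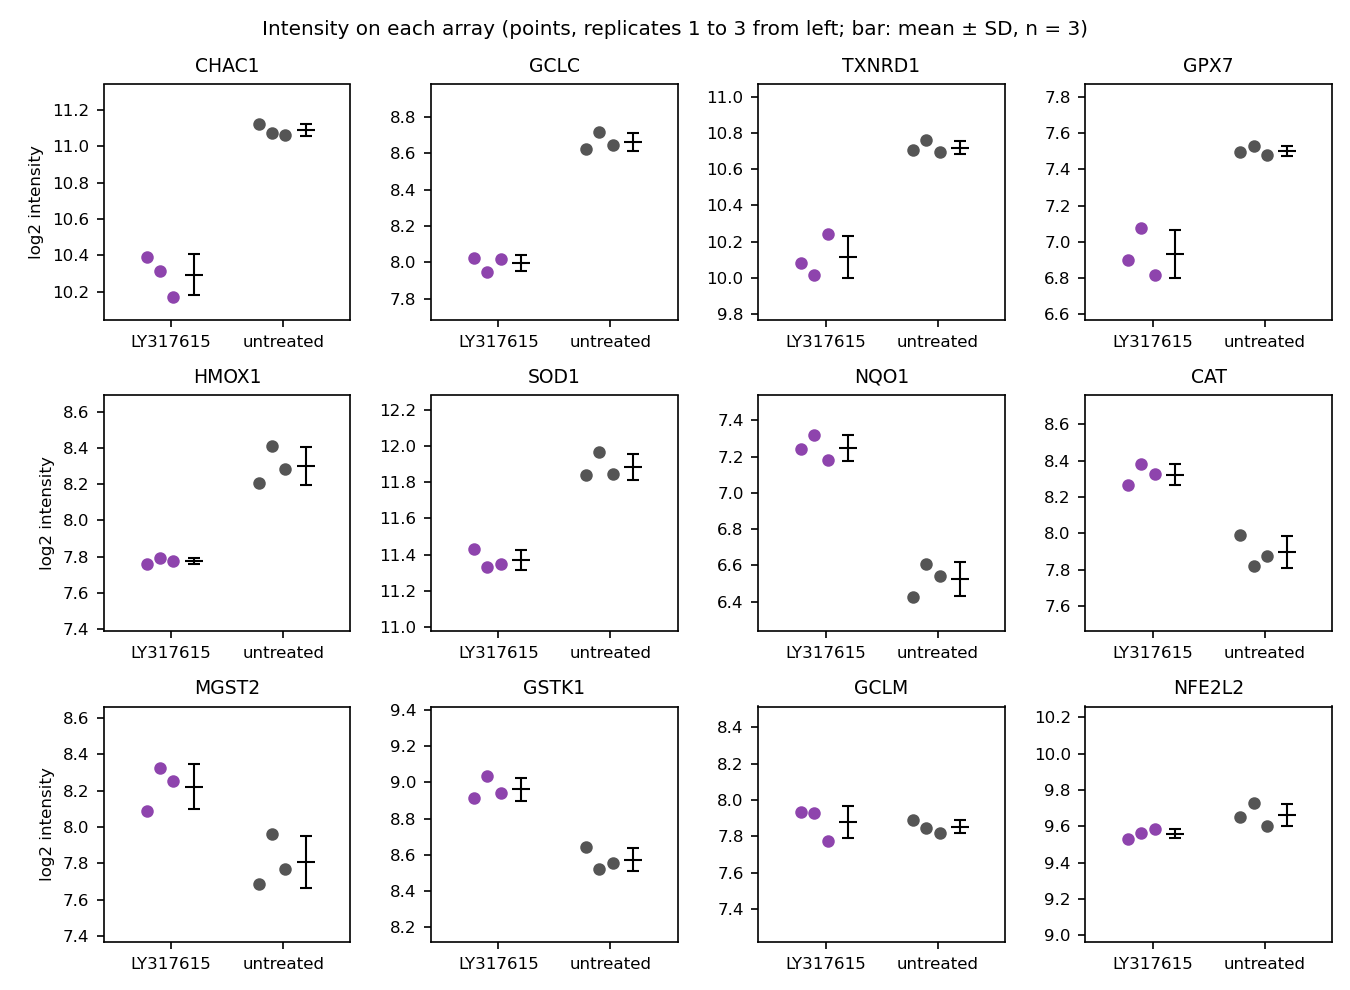
Log2 intensity on each of the 6 arrays for 12 redox genes, LY317615 at left and untreated at right, with the mean and SD of 3 arrays beside the points; every panel spans the same range of log2 units. The groups are apart for all genes shown but GCLM, though only narrowly for NFE2L2, which was not called. The panels of CHAC1, GCLC, TXNRD1, GPX7, HMOX1 and SOD1 fall by over 0.5 while NQO1 rises by 0.72.

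**Figure D5:**
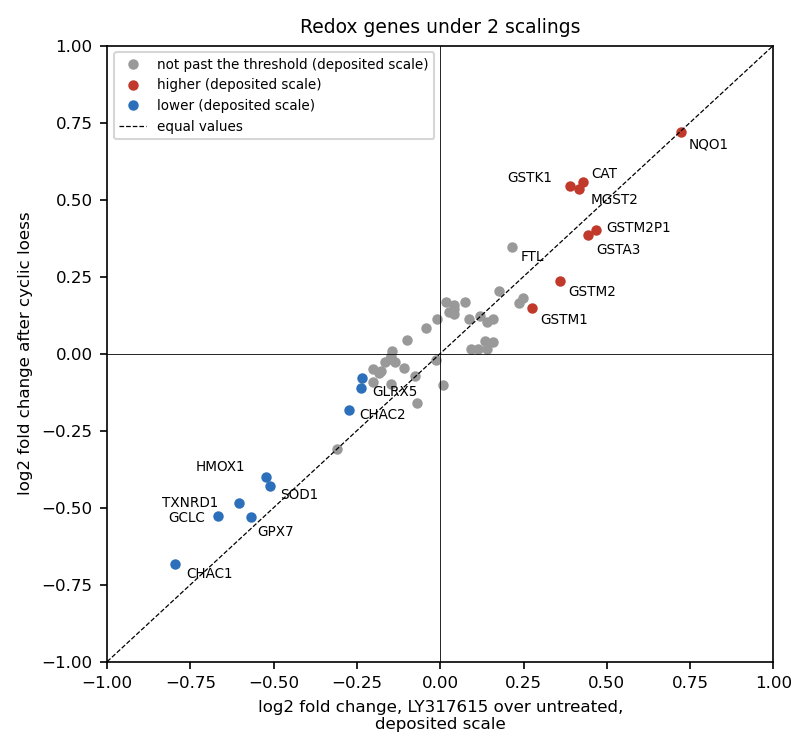
Log2 fold change of each redox gene on the deposited scale (x axis) and after cyclic loess (y axis), coloured by the call on the deposited scale. NQO1, CAT, GSTK1 and MGST2 stay high and CHAC1, GCLC, TXNRD1, GPX7, HMOX1 and SOD1 stay low under both, while GLRX5, CHAC2 and GSTM1 move toward 0.

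Genes around these systems were taken from lists of textbook membership. Some genes, such as SLC7A11 and BLVRA, are in a pair of lists and are counted in each. Their counts stand beside the background of 14.2% called higher and 21.4% called lower. Among all genes above the median intensity these shares were 13.1% and 37.9%, and below it 15.4% and 5.0%. The lists were not split by brightness, so a count of falls above 21.4% need not exceed the share for genes of like brightness. Among 26 measured partners and further targets of NRF2, 1 rose and 9 fell (median log2 fold change -0.06, and -0.05 after cyclic loess). The falls numbered 5 without untreated replicate 2, 6 without untreated replicate 3 or LY317615 replicate 2 and 5 after cyclic loess, where 3 rose. The rises numbered 2 without untreated replicate 1 or 3 or LY317615 replicate 1 or 2, and 5 without the dimmest 30% of genes. SLC7A11, the cystine carrier that feeds glutathione synthesis, rose and read 11.51, 11.44 and 11.54 in LY317615 arrays and 10.59, 10.63 and 10.53 in untreated arrays. That is a rise of 0.91 ± 0.07 (SE, limma adjusted p = 6.86e-05), or 1.88-fold. SQSTM1, an autophagy receptor that also binds KEAP1, fell by 0.70 ± 0.10, and CUL3, the ubiquitin ligase scaffold that works with KEAP1, by 0.44 ± 0.08. UGDH, which makes UDP-glucuronic acid, fell by 0.63 ± 0.09 and the biliverdin reductase gene BLVRA by 0.50 ± 0.10.

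In cysteine supply and glutathione turnover 5 of 21 genes rose and 3 fell, with a median of 0.03. These rises included SLC7A11, already counted above. The rises numbered 3 without untreated replicate 2 and 8 after cyclic loess, and the falls 5 without LY317615 replicate 1. With the array medians set equal the balance turned round, to 3 rises and 5 falls with a median of -0.05. CTH, which makes cysteine from cystathionine, read 7.69, 7.63 and 7.42 in LY317615 arrays and 8.66, 8.50 and 8.41 in untreated arrays, and fell by 0.94 ± 0.10 (SE, limma adjusted p = 0.00022). Import of cystine and synthesis of cysteine were thus read by genes that went opposite ways. SLC25A39 and SLC25A40, which carry glutathione into mitochondria, rose by 0.61 ± 0.09 and 0.59 ± 0.09. CNDP2, a dipeptidase that releases cysteine from cysteinylglycine, fell by 0.38 ± 0.07.

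TXNRD1 and several GPX enzymes contain selenocysteine, and of 21 measured genes of selenoprotein synthesis and other selenoproteins 2 rose and 8 fell (median -0.14, and -0.05 after cyclic loess). The falls stayed at 7 or 8 without any 1 array, but the rises were 0 without untreated replicate 1 or 2 and 0 with the array medians set equal. SEPSECS, which makes selenocysteine on its transfer RNA, read 8.39, 8.23 and 8.28 in LY317615 arrays and 9.08, 8.97 and 9.05 in untreated arrays, a fall of 0.73 ± 0.08 (SE, limma adjusted p = 0.00022). SELENOF, a selenoprotein of the endoplasmic reticulum, fell by 0.69 ± 0.07, SELENOS by 0.68 ± 0.12, SELENOI by 0.51 ± 0.08 and TRNAU1AP, which binds the selenocysteine transfer RNA, by 0.45 ± 0.08.

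Other thioredoxin-fold and disulfide proteins showed 3 rises and 11 falls among 27 genes (median -0.18, and -0.10 after cyclic loess). The falls numbered 5 without untreated replicate 2 or 3 and 6 after cyclic loess. TXNDC16 fell by 0.61 ± 0.08, QSOX2 by 0.60 ± 0.08, ERO1B, an oxidase of the endoplasmic reticulum, by 0.75 ± 0.12 and PDIA5 by 0.41 ± 0.08. P4HB, the classic protein disulfide isomerase, rose by 0.58 ± 0.08. Of 20 iron-handling genes 3 rose and 5 fell, with a median of -0.12. TFRC, the transferrin receptor, read 10.89, 10.67 and 10.79 in LY317615 arrays and 11.67, 11.76 and 11.72 in untreated arrays, and fell by 0.93 ± 0.08 (SE, limma adjusted p = 9.99e-05). The iron importer SLC11A2 fell by 0.45 ± 0.08 and ISCU, the iron-sulfur scaffold, by 0.37 ± 0.07, while the RNA-binding and iron chaperone gene PCBP2 rose by 0.63 ± 0.07 and HFE by 0.55 ± 0.09.

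Of 15 genes of NADPH production, the reducing power of GSR and the thioredoxin reductases, 2 rose and 4 fell, and the falls numbered 2 without untreated replicate 1 or 3 or LY317615 replicate 2. NADK2, the mitochondrial NAD kinase, fell by 0.56 ± 0.08 and the malic enzyme gene ME2 by 0.38 ± 0.08. IDH2 rose by 0.35 ± 0.09 (lost without untreated replicate 3), and ME3 and MTHFD2L were called at 0.40 and -0.27 with calls lost in 4 and 3 leave-one-out fits. The ME3 call was also lost after cyclic loess, and that of MTHFD2L where the variance prior followed intensity. Of 12 oxidant sources 2 rose and 2 fell, with 0 rises without untreated replicate 3. CYBB, the catalytic subunit of the phagocyte NADPH oxidase, read 4.96, 5.17 and 4.98 in LY317615 arrays and 6.18, 6.23 and 6.30 in untreated arrays, and fell by 1.20 ± 0.08 (SE, limma adjusted p = 3.52e-05), or 2.30-fold. RAC2, a small GTPase of the same oxidase, rose by 0.29 ± 0.07, a call lost with the array medians set equal and without untreated replicate 2 or 3. NOX4 changed by -0.38 and AOX1 by 0.28, with calls lost in 1 and 4 leave-one-out fits. Both genes were dim, at the 16.7th and 13.8th percentile of gene intensity. The AOX1 call was also lost after cyclic loess, with the array medians set equal, with an intensity trend and with log2 of the value plus 16.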

How the data were processed

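Total RNA of RL cells was hybridised to 6 Affymetrix Gene 1.0 ST arrays. The authors deposited linear intensities of 33297 probe sets. Their processing notes name GCOS 1.4, Affymetrix Expression Console and RMA (per the submitters' processing notes), with the order not given in the sources used here. Log2 of each value was taken with no added constant. Of the probe sets, 19460 had 1 gene symbol, and the one with the highest mean over the 6 arrays stood for each of 18417 genes. Symbols came from the platform annotation, and lists were matched to current symbols by gene ID. LY317615 was tested against untreated with limma 3.58.1 (R 4.3.3, two-sided, no trend), with p-values adjusted by Benjamini-Hochberg across the 18417 genes and called at 0.05; figures used Python 3.11.15 and matplotlib 3.10.9. Errors of changes are SEs from that model. No detection calls were used, and the number of arrays limits the precision.

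Members, lists, gene pairs and alternatives were chosen with earlier results of these data known. Every member is named; values per array are given for called members with a change of at least 0.3 and for fixed core genes, and in each list up to 5 called genes of smallest adjusted p. GLRX, GLRX5, GSTM1 and GSTP1 fall outside that rule and were given such values after they were seen. The code was tested on simulated data. Alternatives tried were leave-one-out fits, a block for replicate number, other variance priors, array weights, equal medians, cyclic loess, a filter on dim genes, mean probe sets, an added constant of 16 and stricter thresholds. Replicate numbers were checked for pairing: the deviations of same-numbered arrays correlated at -0.02, 0.09 and 0.07 across genes.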

Additional observations from a re-analysis of the deposited data

How the results depend on the processing

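On the deposited scale 8 redox genes were called higher and 9 lower. Leaving out 1 array at a time gave 5 to 7 higher and 6 to 8 lower; over all genes it gave 1566 to 2538 higher, against 2622 with all arrays. A variance prior that followed intensity gave 16 redox genes lower (29.1%, against 24.0% of all genes), equal array medians 5 higher and 15 lower (27.3%, against 26.4%, with 1523 of all genes higher), and log2 of the value plus 16 gave 14 lower (25.5%, against 23.5%). On the deposited scale the lower share was 16.4%, against 21.4% of all genes, so its side of the background turned under these 3 settings, and also at a change of at least 0.5 (10.9%, against 8.73%). An adjusted p of 0.01 left 4 redox genes higher, with 967 of all genes higher and 2619 lower, and a change of at least 0.5 left 1 higher, with 562 and 1607 of all genes. With the replicate block, 8 redox genes were called higher and 7 lower; same-numbered arrays did not deviate together, so the numbers were not taken as pairs. Of the 17 called genes, 15 kept their call with the block, 11 after cyclic loess and 11 to 14 without 1 array, and 0 changed sign in any setting. The cause of these shifts was not tested. After cyclic loess 3 of the 4 called genes below the median intensity lost their call; intensity over background is unknown here, and 3 arrays a group limit what small changes can pass.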
